A study of Mus musculus with 8 samples.

Results

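The genes described here are 38 enzymes and transferases that make, desaturate, elongate, activate, esterify and oxidise fatty acids. They were taken by symbol from a table of 20972 rows that compares Yoda1 with DMSO, and each of the 38 symbols had a row that the authors tested. The cells were MC3T3-E1 subclone 14, a single subclone of an osteoblastic line from mouse calvaria, grown in serum-containing medium and treated before full confluence. One group received 10 µM Yoda1, a compound that opens PIEZO1, a cation channel gated by mechanical force, for 24 h, and the other is labelled DMSO, the solvent of Yoda1, for 24 h. There were 4 samples per group; the labels keep 3 and leave out 1 for batch variation (DMSO replicate 3 and Yoda1 replicate 1). The sample labels do not state separate cultures for the replicates, and p-values therefore cover only the spread among these libraries, which may be technical. The series design text describes human bone endothelial cells, whereas every sample label gives MC3T3-E1 and the table carries mouse gene symbols; the sample labels were followed. The series title places the comparison in work on PIEZO1, GREM1 and bone formation.

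Fatty acids are built in the cytosol from citrate-derived acetyl-CoA, then elongated and given double bonds in the endoplasmic reticulum, and are joined to coenzyme A before they are esterified into phospholipids and triglycerides or carried into mitochondria as carnitine esters. In mitochondria, beta-oxidation shortens the chain step by step and passes electrons to the respiratory chain. Osteoblasts are known to use fatty acids as fuel alongside glucose, and the genes of synthesis and desaturation are known targets of the SREBP transcription factors.

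No value per library was analysed here: the values are a mean normalized count per gene over both groups, a log2 fold change and its standard error (SE). Group levels given below are computed from that mean and fold change with equal group sizes assumed, so they have no error of their own. The means of all rows summed to 19849773 normalized counts, and depth per library was not analysed here. Among 9 osteoblast markers, 7 were lower with Yoda1 and 1 (Spp1) was higher, and the lowest mean was that of the osteocalcin gene Bglap (4.70), per the authors' deposited table. Of 10 adipocyte markers, 4 had a row and the other 6 were not analysed here. Fabp4 and Pparg had means of 2.93 and 3.52 normalized counts, Cebpa had 143, and the broadly expressed Adipor2 alone passed the threshold (higher), per the authors' deposited table. Any part of other cell types in the values below was not tested. In bulk RNA, fewer cells of a type and less RNA per cell cannot be told apart.

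Of the synthesis genes 2 of 3 and of the desaturation genes 4 of 5 were lower in the Yoda1 cultures, and 9 of the 13 genes of lipolysis and oxidation did not pass the threshold. The largest falls among the 38 genes were Acsl3 (2.73-fold lower, 95% interval 2.18 to 3.43), Scd2 (2.55-fold lower, 2.34 to 2.79) and Scd1 (1.92-fold lower, 1.73 to 2.13) per the authors' deposited table. The largest rises were Acaa2 (1.93-fold higher, 1.61 to 2.32), Agpat3 (1.73-fold higher, 1.53 to 1.95) and Acadvl (1.67-fold higher, 1.49 to 1.88) per the authors' deposited table. At a DESeq2 adjusted p under 0.05 over all tested genes, 16 of the 38 were lower, 9 were higher and 13 did not pass, so that 65.8% passed. The background was high: 44.5% of the 14653 tested genes passed, 22.4% higher and 22.1% lower. Among tested genes with a mean of at least 300 normalized counts, 59.5% passed, as did 24 of the 36 members at that level, so the total number of calls stood near the background of well-expressed genes. The authors' own class, which adds an absolute log2 fold change above 0.5, held 5 members higher and 7 lower, against 27.1% of tested genes in either class. The median log2 fold change was -0.16 over the members and -0.015 over all tested genes.

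By step, the 12 genes of synthesis, desaturation and elongation held 8 lower and 2 higher, with a median log2 fold change of -0.41. The 13 genes of activation and glycerolipid assembly held 6 lower and 5 higher (median -0.14). The 13 genes of lipolysis, the carnitine shuttle and beta-oxidation held 2 lower and 2 higher (median -0.12), and the other 9 did not pass. In these 3 groups 83.3%, 84.6% and 30.8% passed, against 44.5% of all tested genes and 59.5% of those with a mean of at least 300. Their median means were 3712, 1024 and 899 normalized counts, and any part of level in these shares was not tested. Whether these groups of genes differ was not tested, since the table holds no covariance between genes.

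**Figure D1:**
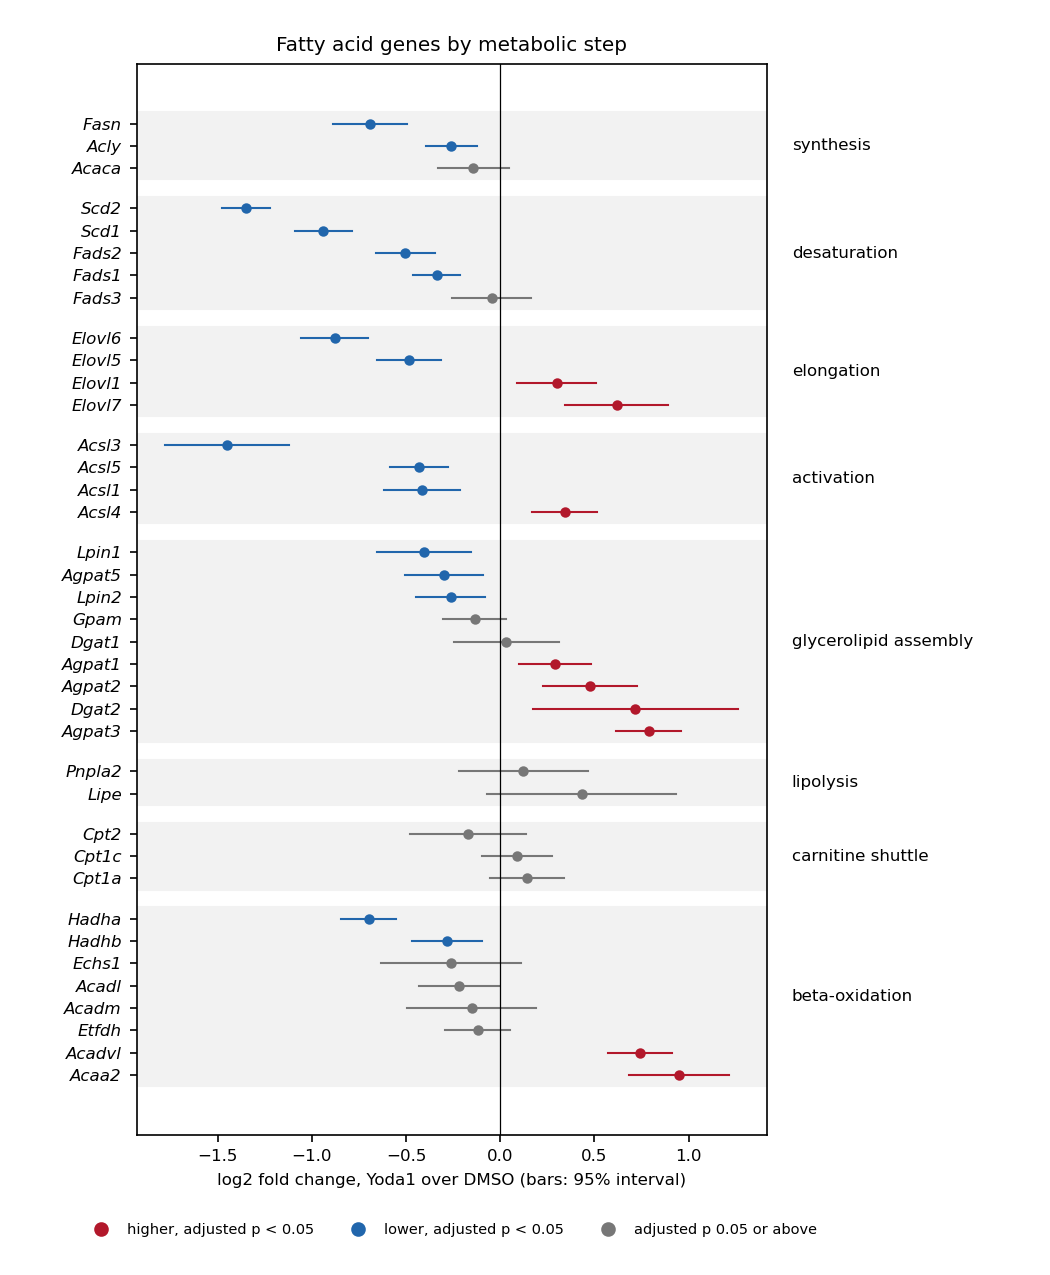
Log2 fold change of each of the 38 genes, Yoda1 over DMSO, from the authors' deposited table, grouped by metabolic step; points are fold changes, bars are 95% intervals, and colour gives the call at an adjusted p under 0.05. Desaturation lies to the left of 0, with Fads3 at -0.05, while activation, elongation, glycerolipid assembly and beta-oxidation hold genes on both sides.

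Of the 3 synthesis genes, Fasn and Acly were lower and Acaca did not pass. Fasn encodes fatty acid synthase, which assembles palmitate. Its implied level was 7222 normalized counts in DMSO and 4469 in Yoda1, and the log2 fold change was -0.69 (SE 0.10, adjusted p = 5.83e-11) per the authors' deposited table. Acly encodes ATP-citrate lyase, which supplies cytosolic acetyl-CoA. It stood at an implied 5619 and 4695 normalized counts. The small difference was -0.26 on the log2 scale (SE 0.07, adjusted p = 0.000547) per the authors' deposited table. With the fold changes centred to equal summed counts of both groups, the adjusted p of Acly was 0.0523. With a t distribution it was 0.0720, the highest of the alternatives that test against no change (lowest 0.000466). Acaca, the acetyl-CoA carboxylase that makes malonyl-CoA, had a log2 fold change of -0.14 (SE 0.10, adjusted p = 0.228) per the authors' deposited table. The ratio of Yoda1 to DMSO for Acaca lay between 0.794 and 1.03 in its 95% interval, which includes no change. In the GENCODE transcripts, 33.5% of the 31-base words of Acaca also occur in another gene, mostly in Gm5182.

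Of the 5 desaturation genes, 4 were lower and 0 higher. Scd1 and Scd2 encode stearoyl-CoA desaturases, which place the first double bond in saturated acyl chains. Scd2 stood at an implied 28822 normalized counts in DMSO and 11295 in Yoda1. Its log2 fold change was -1.35 (SE 0.07, adjusted p = 8.90e-93) per the authors' deposited table. Scd1 stood at an implied 6677 and 3479 normalized counts. Its log2 fold change was -0.94 (SE 0.08, adjusted p = 2.38e-32) per the authors' deposited table. Per kilobase of the longest coding transcript, the mean level of Scd2 (3677) was above those of Fads1 (1620), Fads2 (1149), Scd1 (1051) and Fads3 (1032), and Scd2 also led with median transcript lengths. Scd1 and Scd2 share 253 words of 31 bases, 5.18% of those of Scd1 and 4.63% of those of Scd2, so most of either transcript can be told from the other. Only 5.67% of tested genes had a fold change at or below that of Scd2, and 0.70% had a mean at or above it. Fads2 and Fads1, the delta-6 and delta-5 desaturases of polyunsaturated fatty acid synthesis, were 1.42-fold (1.27 to 1.58) and 1.26-fold lower (1.16 to 1.38) per the authors' deposited table. Fads3, their neighbour with a role in sphingoid base desaturation, stood at -0.05 (SE 0.11, adjusted p = 0.775) per the authors' deposited table, and its sign turned to 0.06 with equal summed counts. The 3 Fads genes lie next to each other on chromosome 19, and Scd2 and Scd1 lie on the same chromosome with 1 coding gene between them in the RefSeq order.

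The elongases split evenly. Elovl6, which extends palmitate and palmitoleate to chains of the stearate length, was 1.84-fold lower (95% interval 1.63 to 2.08), from 1542 to 838 implied normalized counts, per the authors' deposited table. Elovl5, which elongates polyunsaturated chains, was 1.40-fold lower (1.24 to 1.57) per the authors' deposited table. Elovl7 and Elovl1, which act on saturated and very long chains, were 1.53-fold (1.27 to 1.86) and 1.23-fold higher (1.06 to 1.42) per the authors' deposited table. Both rises missed the threshold with a t distribution (adjusted p = 0.0542 for Elovl7 and 0.130 for Elovl1), and both falls kept it.

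Of the 4 long-chain acyl-CoA synthetases, 3 fell and 1 rose. Acsl3, an enzyme of the endoplasmic reticulum and of nascent lipid droplets, stood at an implied 3087 normalized counts in DMSO and 1129 in Yoda1. Its log2 fold change was -1.45 with a wide SE of 0.17 (adjusted p = 8.72e-17) per the authors' deposited table. Utp14b, whose transcripts share 4.22% of the 31-base words of Acsl3, also fell (log2 fold change -0.99, SE 0.16) per the authors' deposited table. Acsl5 and Acsl1 were 1.35-fold (1.21 to 1.50) and 1.33-fold lower (1.16 to 1.53) per the authors' deposited table. Acsl4, which prefers arachidonate, moved the other way and was 1.27-fold higher (1.12 to 1.43), from 1238 to 1569 implied normalized counts, per the authors' deposited table. The calls of Acsl1 and Acsl4 were lost with a t distribution (adjusted p = 0.0651 and 0.0699).

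**Figure D2:**
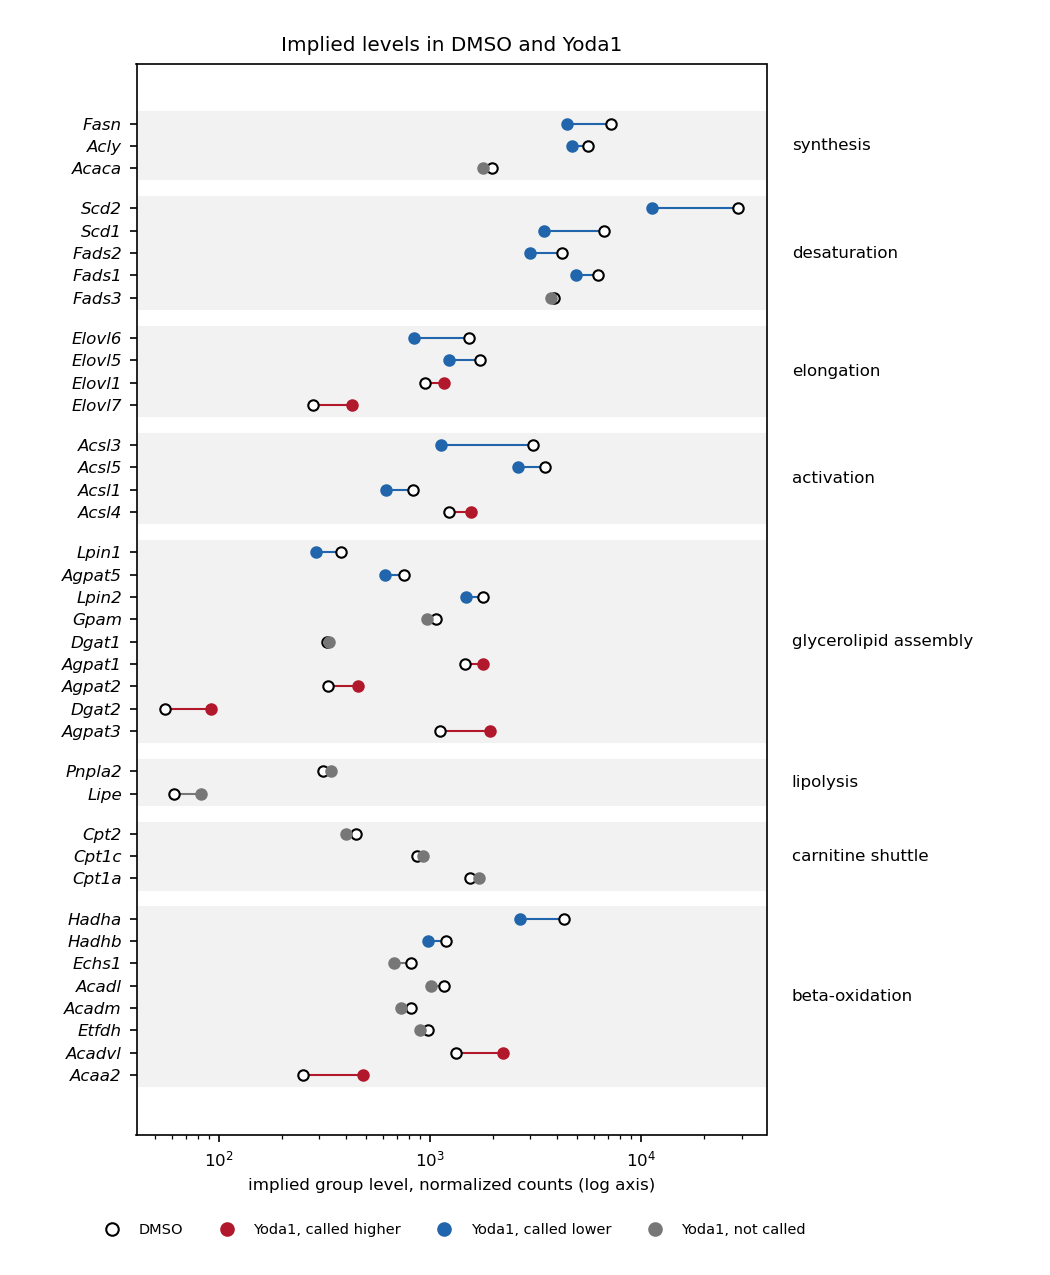
Implied level of each gene in DMSO (open circles) and Yoda1 (filled circles), in normalized counts on a log axis, computed from the deposited mean and fold change and not corrected for transcript length. Scd2 spans the longest distance at the high end, from 28822 to 11295, while Dgat2 and Lipe lie below 100.

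Promoter sequences are shown for 4 genes that fell, because the synthesis genes are known SREBP targets and SREBP often acts beside NF-Y, which binds CCAAT. The 4 were picked without a rule, and of them only Fasn belongs to the synthesis step. Acly, Fads2, Elovl5, Acsl5, Lpin1, Lpin2, Hadha and Hadhb, which also fell and have a window, are not shown. The windows are RefSeq promoters of build GRCm38.p6, which is not the build the submitters name, and 31 of the 38 members matched one; Scd1, Scd2, Fads1, Agpat5, Dgat1, Dgat2 and Acaa2 did not. The 120 bases before the annotated start are printed 5′ to 3′ on the gene's strand, for Fasn (chr11:120824548-120824667, minus strand), Elovl6 (chr3:129532266-129532385, plus strand), Acsl1 (chr8:46490846-46490965, plus strand; the second of its 2 windows, shown because the first holds neither motif) and Acsl3 (chr1:78657705-78657824, plus strand). Capitals mark exact matches on either strand to CCAAT or to the longer motif TCACNCCAC, a core of the sterol regulatory element; a match on the opposite strand reads as the reverse complement.
Fasn: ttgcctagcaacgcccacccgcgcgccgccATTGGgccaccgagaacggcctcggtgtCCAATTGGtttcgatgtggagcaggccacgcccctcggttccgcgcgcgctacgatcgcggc
Elovl6: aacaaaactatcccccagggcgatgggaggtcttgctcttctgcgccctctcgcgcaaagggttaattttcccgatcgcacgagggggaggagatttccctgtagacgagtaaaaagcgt
Acsl1: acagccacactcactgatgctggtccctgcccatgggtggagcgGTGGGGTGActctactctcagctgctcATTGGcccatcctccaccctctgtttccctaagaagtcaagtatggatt
Acsl3: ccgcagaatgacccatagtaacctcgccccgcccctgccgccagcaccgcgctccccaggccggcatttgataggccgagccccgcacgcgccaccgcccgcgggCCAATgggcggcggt

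Fasn holds 3 matches to CCAAT, 2 of which overlap, and Acsl3 holds 1 that ends 11 bases before its start. The stretch of Elovl6 holds neither motif. In the whole 300-base windows, CCAAT occurred in 14 of 31 members with a window (45.2%), against 41.1% of all 27025 genes with one. TCACNCCAC occurred in 1 member, Acsl1, against 1.44% of all genes. Repeats of AGGTCA in the same direction with 1 base between, the form that PPAR binds, occurred in 0 of 31 members and in 13 of all genes. These are letter matches in short windows and say nothing about factor binding, and matches with a changed base were not counted.

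Glycerolipid assembly genes moved both ways, 4 higher and 3 lower of 9. The rises lay among the acyltransferases that turn lysophosphatidate into phosphatidate and the last enzyme of triglyceride synthesis. Agpat3 stood at an implied 1115 normalized counts in DMSO and 1926 in Yoda1. Its log2 fold change was 0.79 (SE 0.09, adjusted p = 8.98e-18) per the authors' deposited table. Agpat2 and Agpat1 were 1.39-fold (1.17 to 1.66) and 1.22-fold higher (1.07 to 1.40) per the authors' deposited table. Dgat2, a diacylglycerol acyltransferase, was 1.64-fold higher with a wide interval (1.13 to 2.40) and a low mean count (73.7) per the authors' deposited table. Its adjusted p was 0.0241, and it was 0.151 with a t distribution and 0.0970 with a trend for length and GC content removed. The lowest over the alternatives was 0.00834, and 0.151 was the highest of those that test against no change. The falls were those of the mitochondrial acyltransferase gene Agpat5 and the phosphatidate phosphatase genes Lpin1 and Lpin2, 1.23-fold (1.06 to 1.42), 1.32-fold (1.11 to 1.57) and 1.20-fold lower (1.06 to 1.36) per the authors' deposited table. Of the 31-base words of Agpat5, 18.9% also occur in another gene, mostly in Gm35934. Gpam, the mitochondrial enzyme that starts glycerolipid synthesis, and Dgat1 stood at -0.14 (SE 0.09) and 0.03 (0.14) on the log2 scale per the authors' deposited table, with adjusted p of 0.196 and 0.888. Dgat1 changed sign, to -0.07, when the length and GC trend was removed. Of the 7 calls in this step, that of Agpat3 alone held with a t distribution. The others had adjusted p from 0.0748 (Agpat2) to 0.151 (Dgat2) with it. Over all tested genes, that distribution left 1522 higher and 1468 lower calls in place of 3285 and 3233.

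Neither lipolysis gene and none of the 3 carnitine shuttle genes passed. Pnpla2, which encodes adipose triglyceride lipase, had a log2 fold change of 0.12 (SE 0.17) and the hormone-sensitive lipase gene Lipe 0.43 (0.26, at a mean of only 71.8 normalized counts) per the authors' deposited table. The 95% interval of the ratio was 0.860 to 1.38 for Pnpla2 and 0.953 to 1.91 for Lipe, so that values from a small fall to a rise of these sizes were not excluded. Of the 31-base words of Lipe, 12.9% also occur in another gene, mostly in 4732471J01Rik. Cpt1a, the carnitine palmitoyltransferase that admits long chains to mitochondria, had a ratio of 1.10 (0.964 to 1.26), Cpt1c 1.06 (0.934 to 1.21) and Cpt2 0.888 (0.718 to 1.10) per the authors' deposited table. Their adjusted p were 0.254, 0.487 and 0.405. With equal summed counts Cpt1a passed (log2 fold change 0.25, adjusted p = 0.0305). Over the alternatives that test against no change, its adjusted p ran from 0.0305 to 0.620.

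Beta-oxidation enzymes held 2 rises, 2 falls and 4 genes that did not pass. Acadvl, the very-long-chain acyl-CoA dehydrogenase, rose from an implied 1325 to 2217 normalized counts (log2 fold change 0.74, SE 0.09, adjusted p = 3.28e-16) per the authors' deposited table. Dvl2 shares 33.2% of the 31-base words of Acadvl, counted on either strand. It was itself higher (log2 fold change 0.29, SE 0.09, adjusted p = 0.00334, but 0.0965 with a t distribution) per the authors' deposited table. The strand of the shared words and the share of reads from either gene were not tested. Acaa2, the mitochondrial thiolase, rose from an implied 251 to 485 normalized counts. Its log2 fold change was 0.95 (SE 0.14, adjusted p = 3.06e-11) per the authors' deposited table. Hadha and Hadhb, the subunits of the trifunctional protein that acts on long chains, both fell. Hadha was 1.62-fold lower (1.47 to 1.80), from 4332 to 2670 implied normalized counts, and Hadhb 1.22-fold lower (1.07 to 1.38) per the authors' deposited table. They lie next to each other on chromosome 5. The call of Hadhb was lost with equal summed counts (adjusted p = 0.118) and with a t distribution (0.116), and 23.5% of its 31-base words occur in other genes, mostly in Gm13910. Acadl, Acadm, Echs1 and Etfdh, which serve long chains, medium chains, enoyl-CoA hydration and electron transfer, had log2 fold changes of -0.22, -0.15, -0.26 and -0.12 with SEs of 0.11, 0.17, 0.19 and 0.09 per the authors' deposited table. Their adjusted p ran from 0.0894 (Acadl) to 0.521 (Acadm).

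Beyond the 38 genes, 120 further genes of the pathway were looked up. Of the 100 that were tested, 31 were higher and 23 lower, with a median log2 fold change of 0.20; 13 had no row under these symbols and 7 were not tested. Their share of higher calls stood above the 22.4% of all tested genes and their share of lower calls near the 22.1%, which is a description and not a test. In either direction 54% of the 100 passed, against 44.5% of all tested genes. By list, 25% of the uptake and binding genes and 100% of the other elongation and desaturation genes passed. The shares of the remaining lists ran from 45.5% to 57.1%. Of tested genes with a mean of at least 300 normalized counts, 59.5% passed. The median mean of the 100 was 767 normalized counts, against 423 over all tested genes.

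**Figure D3:**
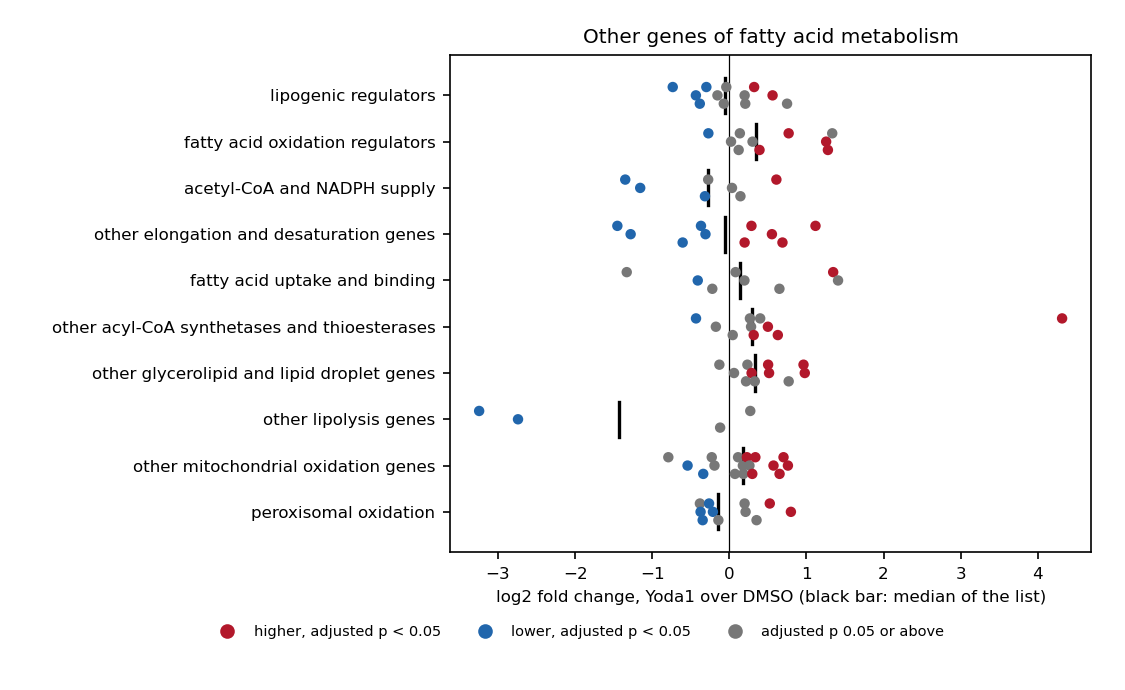
Log2 fold change, Yoda1 over DMSO, of 100 tested genes in 10 further lists of fatty acid metabolism; each point is a gene, colour gives the call and the black bar the median of the list. The list of glycerolipid and lipid droplet genes holds 5 higher and 0 lower of 11 (45.5% passing, against 44.5% of all tested genes). Acsbg1 stands apart at 4.32.

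Regulators of lipid synthesis held 4 lower and 2 higher of 12 tested. Srebf2, which encodes the SREBP2 factor, was 1.66-fold lower (95% interval 1.51 to 1.83) per the authors' deposited table. Srebf1, which encodes the SREBP1 factors, stood at -0.07 (SE 0.09, adjusted p = 0.555) per the authors' deposited table. Its value turned to 0.03 with equal summed counts. It passed as lower (-0.25, adjusted p = 0.0116) once a trend for length and GC content was taken out. That was its lowest adjusted p over the alternatives, and with no filter it was 0.747. Insig1, a sterol-regulated retention protein and SREBP target, and Mbtps1, a protease of SREBP processing, fell (log2 fold change -0.43 and -0.30, SEs 0.08 and 0.06) per the authors' deposited table. Rxra fell as well (-0.38, 0.07), and Mbtps2 (0.56, 0.14) and Insig2 (0.32, 0.10) rose per the authors' deposited table. The LXR gene Nr1h3 had a mean of 14.9 normalized counts and did not pass (log2 fold change 0.75, SE 0.57, adjusted p = 0.302) per the authors' deposited table. Mlxipl had no row under this symbol and was not analysed here.

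Among genes that supply acetyl-CoA and NADPH, 3 were lower and 1 higher of 7. Acss2, which makes cytosolic acetyl-CoA from acetate, was 2.55-fold lower (2.01 to 3.23), Idh1, a cytosolic NADPH source, 2.23-fold lower (1.96 to 2.54) and Mdh1 1.25-fold lower (1.10 to 1.41) per the authors' deposited table. Pgd, of the pentose phosphate pathway, was 1.53-fold higher (1.34 to 1.74) per the authors' deposited table. The other elongation and desaturation genes held 5 higher and 5 lower of 10 tested. Hsd17b12, Hacd2, Hacd3 and Hacd1, which reduce and dehydrate the chain after each elongase step, rose (log2 fold changes 0.69, 1.12, 0.55 and 0.29, SEs 0.09, 0.22, 0.09 and 0.11), as did Degs1 (0.20, 0.08), per the authors' deposited table. Tecr, the last reductase of that cycle, fell (-0.31, 0.07), as did Cyb5a (-0.61, 0.13) and Cyb5r3 (-0.37, 0.07), which pass electrons to the desaturases, per the authors' deposited table. Elovl4 and Scd4 fell too, by 1.45 and 1.28 on the log2 scale, at means of only 19.2 and 22.6 normalized counts per the authors' deposited table.

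Fatty acid uptake and binding genes held 1 higher (Slc27a1) and 1 lower (Fabp5) of 8 tested. The binding protein gene Fabp5 was 1.33-fold lower (1.15 to 1.53), and the transporter gene Slc27a1 2.54-fold higher (1.49 to 4.35) with a low mean count (34.3), per the authors' deposited table. Slc27a4 and Slc27a3 had log2 fold changes of 0.20 and -0.22 (SEs 0.09 and 0.11) and did not pass per the authors' deposited table (adjusted p = 0.0695 and 0.107).

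Other acyl-CoA synthetases and thioesterases held 4 higher and 1 lower of 10 tested. Acsbg1, a synthetase for long and very long chains known from brain, was 19.9-fold higher (13.2 to 30.1), from an implied 11.9 to 238 normalized counts, per the authors' deposited table. The thioesterase genes Acot7 and Acot9 (log2 fold change 0.63 and 0.32, SEs 0.08 and 0.08) and Acsf3 (0.50, 0.14) rose, and Acsf2 (-0.43, 0.15) fell, per the authors' deposited table.

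Lipid droplet and further glycerolipid genes held 5 higher and 0 lower of 11 tested. In either direction 45.5% passed, near the 44.5% of all tested genes (22.4% higher and 22.1% lower). Plin2, a coat protein of lipid droplets, was 1.43-fold higher (1.26 to 1.62) and Hilpda, an inhibitor of adipose triglyceride lipase, 1.97-fold higher (1.54 to 2.52) per the authors' deposited table. Fitm2, which acts in droplet budding, and the glycerol-3-phosphate acyltransferase genes Gpat3 and Gpat4 also rose (log2 fold change 0.50, 0.96 and 0.29, SEs 0.13, 0.26 and 0.09) per the authors' deposited table. Of 4 other lipolysis genes, Mgll and G0s2 fell, at means of only 9.36 and 5.33 normalized counts (log2 fold change -3.25 and -2.74, SEs 0.95 and 1.11), per the authors' deposited table. Both means lie under the minimum of 9.6 normalized counts of the stricter filter, which leaves both genes untested. Abhd5 and Lipa had log2 fold changes of 0.27 and -0.12 and did not pass per the authors' deposited table (adjusted p = 0.0991 and 0.238).

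Regulators of oxidation held 4 higher and 1 lower of 10 tested. Mlycd, which degrades malonyl-CoA, was 2.39-fold higher (1.85 to 3.08), and Esrra, an orphan receptor of mitochondrial genes, 1.70-fold higher (1.45 to 2.00) per the authors' deposited table. Prkaa1, a catalytic subunit of AMP kinase, and the coactivator gene Ppargc1b, at a mean of 25.5 normalized counts, rose (log2 fold change 0.39 and 1.28, SEs 0.08 and 0.44), and Pdk4 fell (-0.27, 0.08), per the authors' deposited table. Ppard stood at 0.14 (SE 0.11, adjusted p = 0.349) and Pparg at 0.30 (1.21, adjusted p = 0.874) per the authors' deposited table. Ppargc1a was not tested, and Ppara had no row under this symbol and was not analysed here.

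The other mitochondrial oxidation genes held 7 higher and 2 lower of 17. In either direction 52.9% passed, against 44.5% of all tested genes and 59.5% of those with a mean of at least 300. Slc25a20, the carnitine-acylcarnitine carrier, was 1.57-fold higher (1.34 to 1.85), Etfa, a subunit of the electron transfer flavoprotein, 1.63-fold (1.38 to 1.92) and Hsd17b10 1.49-fold higher (1.27 to 1.74) per the authors' deposited table. The isomerase gene Eci2 and Acadsb fell (log2 fold change -0.54 and -0.34, SEs 0.10 and 0.14) per the authors' deposited table. Peroxisomal oxidation genes held 2 higher (Acaa1a and Pex5) and 4 lower of 11 tested. Acaa1a, the peroxisomal thiolase, was 1.74-fold higher (1.49 to 2.03) and the import receptor gene Pex5 1.44-fold higher (1.26 to 1.64) per the authors' deposited table. Among the genes that fell were Hsd17b4 (log2 fold change -0.26, SE 0.09) and Abcd3 (-0.21, SE 0.09) per the authors' deposited table.

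With a t distribution, 16 of the 31 higher and 9 of the 23 lower calls among the further genes held. Over all tested genes there were 1522 higher and 1468 lower in place of 3285 and 3233. Of the further genes named above, those that lost the call with the t distribution were Mbtps2, Insig2, Mdh1, Hacd1, Degs1, Tecr, Elovl4, Scd4, Slc27a1, Fabp5, Acot9, Acsf3, Acsf2, Fitm2, Gpat3, Gpat4, Mgll, G0s2, Ppargc1b, Pdk4, Acadsb, Hsd17b4 and Abcd3. Their adjusted p ran from 0.0547 (Tecr) to 0.174 (Abcd3). With equal summed counts, Mdh1, Acsf2, Pdk4, Acadsb, Hsd17b4 and Abcd3 lost the call, with adjusted p from 0.0524 (Mdh1) to 0.345 (Abcd3), and Slc27a4 (0.00312), Abhd5 (0.0162) and the adipocyte marker Cebpa (0.0453) gained it as higher. Acsbg1, Acss2, Idh1, Hacd2, Mlycd and Srebf2 also passed when tested against a change of 0.5 on the log2 scale. So did Mgll, at its mean of only 9.36 normalized counts.

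**Figure D4:**
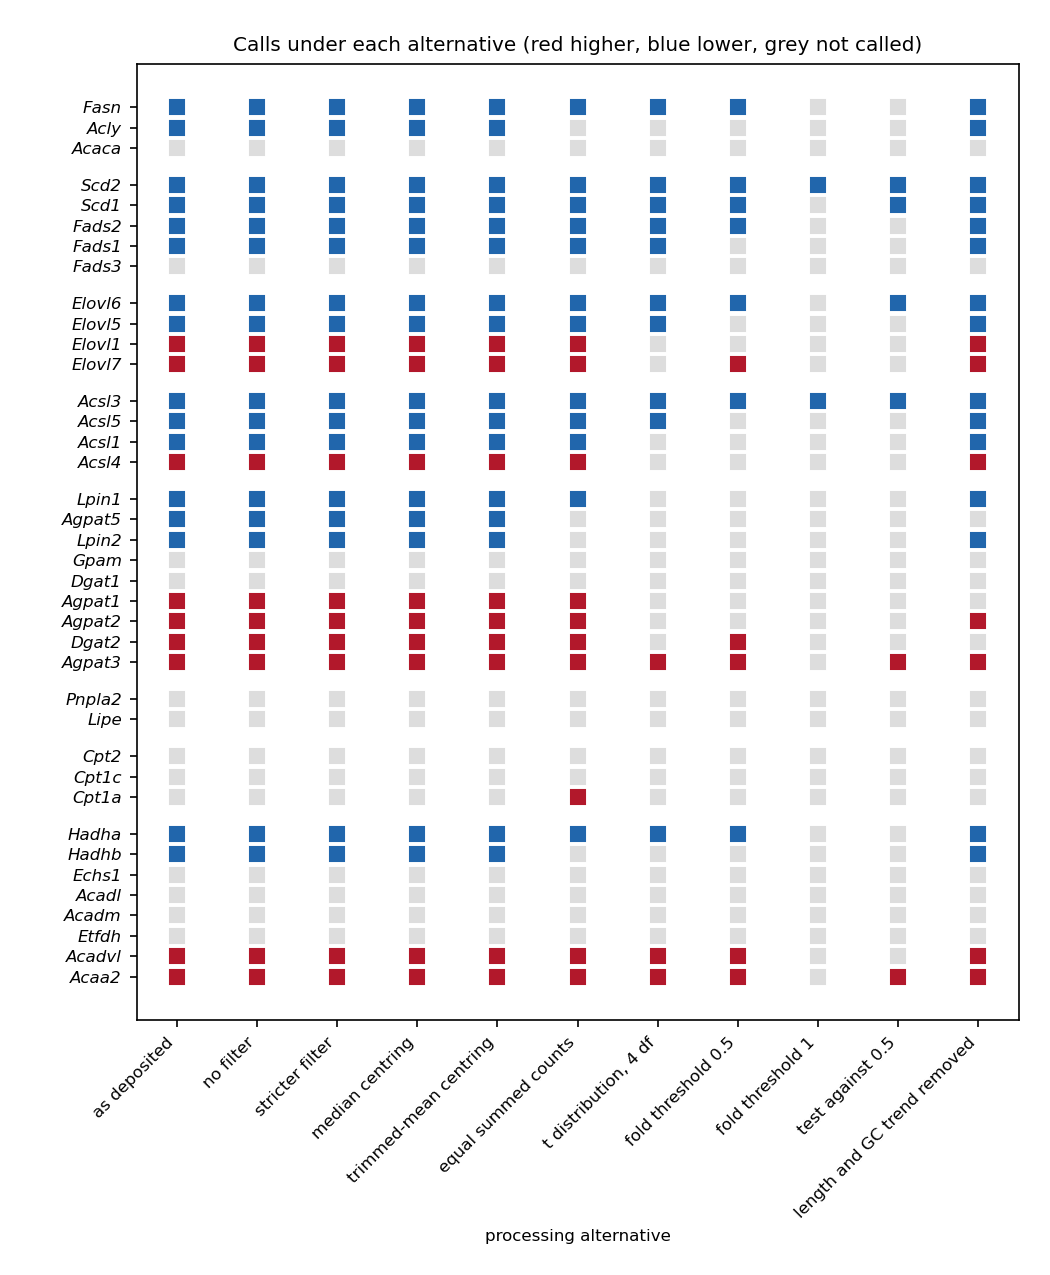
Call of each of the 38 genes (rows, by step) in the comparison as deposited and under 10 processing alternatives (columns); red is higher, blue lower and grey not called at an adjusted p under 0.05. Scd2 and Acsl3 are blue in every column, and with a t distribution 10 genes stay lower and 3 stay higher.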

How the data were processed

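RNA-seq of 8 samples (4 per group, of which the labels keep 3) was deposited as 1 table of the authors' comparison. Per the submitters' processing notes, the tools were Salmon and DESeq2 (no versions) on build GRCm39; how the model and its filters were set is not given in the sources used here. Per the file headers, the authors' mean over libraries of size-factor-scaled counts is a signal. The authors also gave a log2 fold change with a standard error; its direction, Yoda1 over DMSO, was read from the table's name. The Wald statistic is a score, per the file headers, and was checked to equal their ratio. The deposited p-values equal its two-sided normal tail, and the adjusted ones their Benjamini-Hochberg adjustment over 14653 rows, the tested genes; the other 6319 rows were not tested.

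The comparison as deposited, at an adjusted p under 0.05, is the result reported. Ratios and 95% intervals were computed from the fold change and standard error with the normal distribution (Python 3.11.15, SciPy 1.17.1), and group levels by splitting the mean with the fold change. Where a symbol occurs more than once (21 symbols) the row of the higher mean was taken. Transcript lengths, GC content and shared words of 31 bases, counted on either strand, came from GENCODE M21 (GRCm38) transcripts, and promoters from RefSeq; no coordinates were matched between builds. Protein sequences were not used here.

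The members and lists were chosen with earlier results of these data known. The rule for named genes took all 38 members, the 4 smallest adjusted p of each further list, all that passed in a direction where 5 or fewer did, and 9 regulators whatever their result; Slc27a3, Slc27a4, Abhd5 and Lipa come in as smallest values that did not pass. The alternatives were 2 filters, 3 centrings, a t distribution with 4 degrees of freedom, fold thresholds of 0.5 and 1, a test against 0.5, and, chosen after seeing the data, removal of a trend with length and GC content, which 86.1% of tested genes and all 38 members had. The background at a mean of 300 was also chosen after seeing the data. The Wald tests and their adjustment were run on simulated fold changes, drawn from a normal distribution with the deposited standard errors. Such a run cannot show whether those standard errors hold. The split into group levels was checked on a made-up pair of values, and the other steps were not simulated. A few genes are counted in their lists and are not reported here by name.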

Additional observations from a re-analysis of the deposited data

How the results depend on the processing

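The filters and the median and trimmed-mean centrings changed no call among the 38 genes. Centring to equal summed counts, which subtracts -0.11 on the log2 scale from every gene, split all tested genes into 4137 higher and 2500 lower in place of 3285 and 3233, moved the median log2 fold change of the members from -0.16 to -0.06, gave 43 higher and 15 lower further pathway genes in place of 31 and 23, and turned Fads3 to 0.06 and Srebf1 to 0.03. It ended the calls of Acly, Agpat5, Lpin2 and Hadhb and added that of Cpt1a. With a t distribution with 4 degrees of freedom, 1522 genes were higher and 1468 lower, and 3 members higher and 10 lower in place of 9 and 16; of the further pathway genes 16 were higher and 9 lower. With a fold threshold of 0.5 there were 2023 and 1954 genes, 5 and 7 members, and 22 and 9 further genes; with a threshold of 1 there were 721 and 765 genes, 0 and 2 members (Scd2 and Acsl3), and 5 and 6 further genes. In the test against 0.5 there were 702 and 691 genes, 2 and 4 members, and 3 and 4 further genes. These last counts are lower by construction, since the tests ask for more. Removal of the length and GC trend ended the calls of Agpat1, Agpat5 and Dgat2 among the members and turned Dgat1 to -0.07 and Lipa to 0.00; among the further genes it ended those of Abcd3, Acadsb and Hacd1 and added Slc27a3 and Srebf1 as lower; the cause was not tested. With no filter Abcd3 and Acadsb were among those that lost the call, and median and trimmed-mean centring ended that of Abcd3 and added Slc27a4. Scd2 and Acsl3 passed under all 10 alternatives. No paired analysis was possible because the table holds no values per library, and for the same reason leaving out a replicate was not run. Low means limit Dgat2 and Lipe.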
